A study of Mus musculus with 22 samples.

Results

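The BMP pathway genes described here are the ligands *Bmp2*, *Bmp3*, *Bmp4*, *Bmp7* and *Gdf6*, the receptors *Bmpr1a* and *Bmpr2*, and the antagonists *Nog*, *Grem1* and *Chrdl1*. They were chosen by gene symbol with earlier results of these data known, so their shares set beside those of all entries are descriptive only. Each matched 1 entry of the expression table, and together they are 10 of its 23286 entries. The cells were mouse embryonic palatal mesenchyme cells (MEPMs), primary cells of wild-type C57BL/6 embryos at E13.5 that were starved of serum overnight. RNA-seq was made of 22 samples in 10 conditions. FGF samples were stimulated with 50 ng/mL FGF1 plus 1 ug/mL heparin, and PDGF samples with 30 ng/mL PDGFA. Before each ligand was added, cells were pretreated for 30 min with PD325901 at 1 uM (PD, an inhibitor of the kinase MEK) or LY294002 at 10 uM (LY, an inhibitor of PI3K). These conditions were measured 1 hr or 4 hr after the ligand, with 2 samples per condition. Each ligand alone was measured at 4 hr with 3 samples, and untreated cells and ligand alone at 1 hr were not analysed here. All conditions share the early passage in culture and the low serum, and the sets of replicates came from separate litters.

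The values are FPKM, fragment counts divided by transcript length and by library size, and the table holds 1 value per gene and condition that pools the replicates. The spread between replicates is thus unknown, no test was made, and the table does not show how many reads a value rests on. Comparisons are plain ratios of FPKM among entries above 1 FPKM in either condition, and an entry was counted as higher or lower from 1.5-fold. Of 8 markers of palatal mesenchyme, 8 were above 1 FPKM, and their sum, mostly *Vim*, was 2183 to 3069 FPKM across conditions. The summed markers of epithelium were at 1.05 to 9.31 FPKM, those of blood at 0.776 to 2.08 FPKM and those of muscle, mostly *Acta1*, at 12.2 to 26.6 FPKM. *Dusp6*, a feedback phosphatase of the MEK pathway, was at 0.891 to 2.46 FPKM in the 4 conditions with PD and at 10.9 to 109 FPKM in the other 6. Some abundant genes are listed at 0, such as *Col1a1* in both ligand-alone conditions, but no BMP gene of the 10 was.

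BMP ligands are secreted proteins of the TGF-beta family that bring type I and type II receptors together on the cell surface. The type II receptor then activates the type I receptor, which phosphorylates Smad proteins that switch on targets such as the *Id* and *Msx* genes. Secreted antagonists bind the ligands before they reach a receptor, and in the palate the balance of ligand and antagonist is known to matter for growth of the shelves and for bone formation.

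*Grem1* encodes a secreted antagonist that binds BMP2, BMP4 and BMP7, and *Bmp4* was the main BMP ligand of these cells by level. Of the 10 genes, they were the most abundant antagonist and ligand. Their balance is followed across conditions, so the stretches of 250 bases before their start sites are shown, from RefSeq on GRCm38.p6, each on the minus strand and written 5′ to 3′ towards the start site. The *Grem1* stretch is chr2:113758649-113758898 and the *Bmp4* stretch is chr14:46390670-46390919. Capitals mark a match to GGCGCC, a GC-rich element that Smad proteins can bind.
Grem1: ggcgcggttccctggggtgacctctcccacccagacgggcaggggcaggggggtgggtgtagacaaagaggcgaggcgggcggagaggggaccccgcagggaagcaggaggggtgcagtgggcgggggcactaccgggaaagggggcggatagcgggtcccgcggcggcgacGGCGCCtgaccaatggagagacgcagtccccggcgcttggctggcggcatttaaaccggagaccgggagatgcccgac
Bmp4: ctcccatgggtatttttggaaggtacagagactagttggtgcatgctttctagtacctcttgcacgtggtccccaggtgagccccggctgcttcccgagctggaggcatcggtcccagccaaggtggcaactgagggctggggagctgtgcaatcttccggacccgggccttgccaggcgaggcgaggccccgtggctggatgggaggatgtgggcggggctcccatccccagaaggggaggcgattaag
The match before *Grem1* begins 78 bases before the start site, and 9.59% of 32851 RefSeq promoters of this length hold one on either strand. Matches were also found before *Bmpr2*, 105 bases upstream, and before *Bmpr1a*. The other motifs searched on both strands were TGANTCA for AP-1 (in 6.75% of promoters), TGACGTCA for CREB (1.55%), CCGGAAGT for ETS factors (2.88%), GTAAACA for FOXO factors (3.17%) and the TATA box TATAAA (12.4%). None of these letters occurred in the stretches of *Grem1*, *Bmp4*, *Bmpr1a* or *Bmpr2*, the 4 of 10 genes with a promoter sequence in the table used. The *Grem1* stretch was 72% G or C and that of *Bmp4* 63.2%, against a median of 52.4% over all promoters. A match is a description of letters, and nothing about binding follows from it or from its absence.

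Among the ligands, *Bmp4* was by far the highest per transcript length, with 23.0 to 45.1 FPKM and 69.5% to 89.5% of the summed FPKM of the 5 ligands in each condition. With FGF it was at 27.9 FPKM with PD at 4 hr, 37.3 with PD at 1 hr, 23.0 with LY at 4 hr, 34.7 with LY at 1 hr and 34.2 with ligand alone. With PDGF the values were 39.2 FPKM with PD at 4 hr, 36.1 with PD at 1 hr, 39.7 with LY at 4 hr, 39.9 with LY at 1 hr and 45.1 with ligand alone. The whole range was 1.96-fold, the highest value being that of PDGF alone and the lowest that of 4 hr FGF + LY. *Bmp2*, which encodes the closest relative of BMP4, stayed near the 1 FPKM minimum, at 0.520 to 1.31 FPKM with a median of 0.868. *Bmp7* was at 0.0166 to 0.133 FPKM in every condition and entered no comparison.

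*Bmp3* encodes an atypical BMP that does not signal through the BMP Smads and restrains the bone-forming BMPs, and its range of 12.7-fold was the largest among the 9 genes above the minimum. With FGF it was at 7.20 FPKM with PD at 4 hr, 6.92 with PD at 1 hr, 1.07 with LY at 4 hr, 3.58 with LY at 1 hr and 2.25 with ligand alone. With PDGF it was at 13.6 FPKM with PD at 4 hr, 6.81 with PD at 1 hr, 2.39 with LY at 4 hr, 4.55 with LY at 1 hr and 5.93 with ligand alone. All 4 PD conditions lay above all LY conditions and above both ligand-alone conditions. The share of all entries with such a separation was not calculated, and the markers *Osr1* and *Kdr*, outside the BMP pathway, separated in the same way. *Gdf6*, a ligand known for its role in joints and cranial sutures, was at 2.95 FPKM with FGF and PD at 4 hr, 1.41 at 1 hr, 0.894 with FGF and LY at 4 hr, 1.34 at 1 hr and 3.23 with FGF alone. With PDGF it was at 2.85 FPKM with PD at 4 hr, 1.67 at 1 hr, 1.49 with LY at 4 hr, 2.19 at 1 hr and 3.86 with PDGF alone. Both ligand-alone values of *Gdf6* lay above all 8 inhibitor conditions.

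The receptors were the steadiest of the genes. *Bmpr1a*, the type I receptor that binds BMP2 and BMP4, was at 51.5 to 69.8 FPKM with a median of 64.3, a range of 1.36-fold. *Bmpr2*, the BMP type II receptor, was at 16.5 to 24.4 FPKM with a median of 20.3, a range of 1.48-fold. *Bmpr1a* was 2.23 to 3.61 times *Bmpr2* by FPKM, and neither passed 1.5-fold in any of the 17 comparisons. The log2 ratios ran from -0.25 to 0.40 for *Bmpr1a* and from -0.25 to 0.48 for *Bmpr2*. The median range over the 12298 entries above 1 FPKM somewhere was 1.84-fold, so both receptors varied less than the median entry.

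Among the antagonists, *Grem1* was one of the most abundant transcripts, ranked 112 by mean FPKM, and held 94.2% to 97.6% of the summed FPKM of the 3 antagonists. With FGF it was at 660.5 FPKM with PD at 4 hr, 488 with PD at 1 hr, 386 with LY at 4 hr, 335 with LY at 1 hr and 212 with ligand alone. With PDGF it was at 422 FPKM with PD at 4 hr, 379 with PD at 1 hr, 278 with LY at 4 hr, 268 with LY at 1 hr and 170.2 with ligand alone. Both ligand-alone values lay below all 8 inhibitor values, and for each ligand and time PD was above LY. *Nog* encodes noggin, which binds BMP4 tightly and blocks both receptor contacts. It was at 16.4 FPKM in 4 hr FGF + PD and 8.13 in 1 hr FGF + PD, and at 8.41 in 4 hr PDGF + PD and 9.06 in 1 hr PDGF + PD. In the LY conditions it was at 3.47 FPKM with FGF at 4 hr, 4.05 with FGF at 1 hr, 3.04 with PDGF at 4 hr and 1.93 with PDGF at 1 hr. FGF alone at 5.97 FPKM and PDGF alone at 5.49 FPKM lay between the PD and the LY conditions, which did not overlap. The share of all entries without such an overlap was not calculated. *Chrdl1*, a chordin-like antagonist, was at 6.19 to 6.79 FPKM with PD and 5.85 to 7.97 FPKM with LY, against 3.31 FPKM with FGF alone and 4.94 FPKM with PDGF alone.

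**Figure D1:**
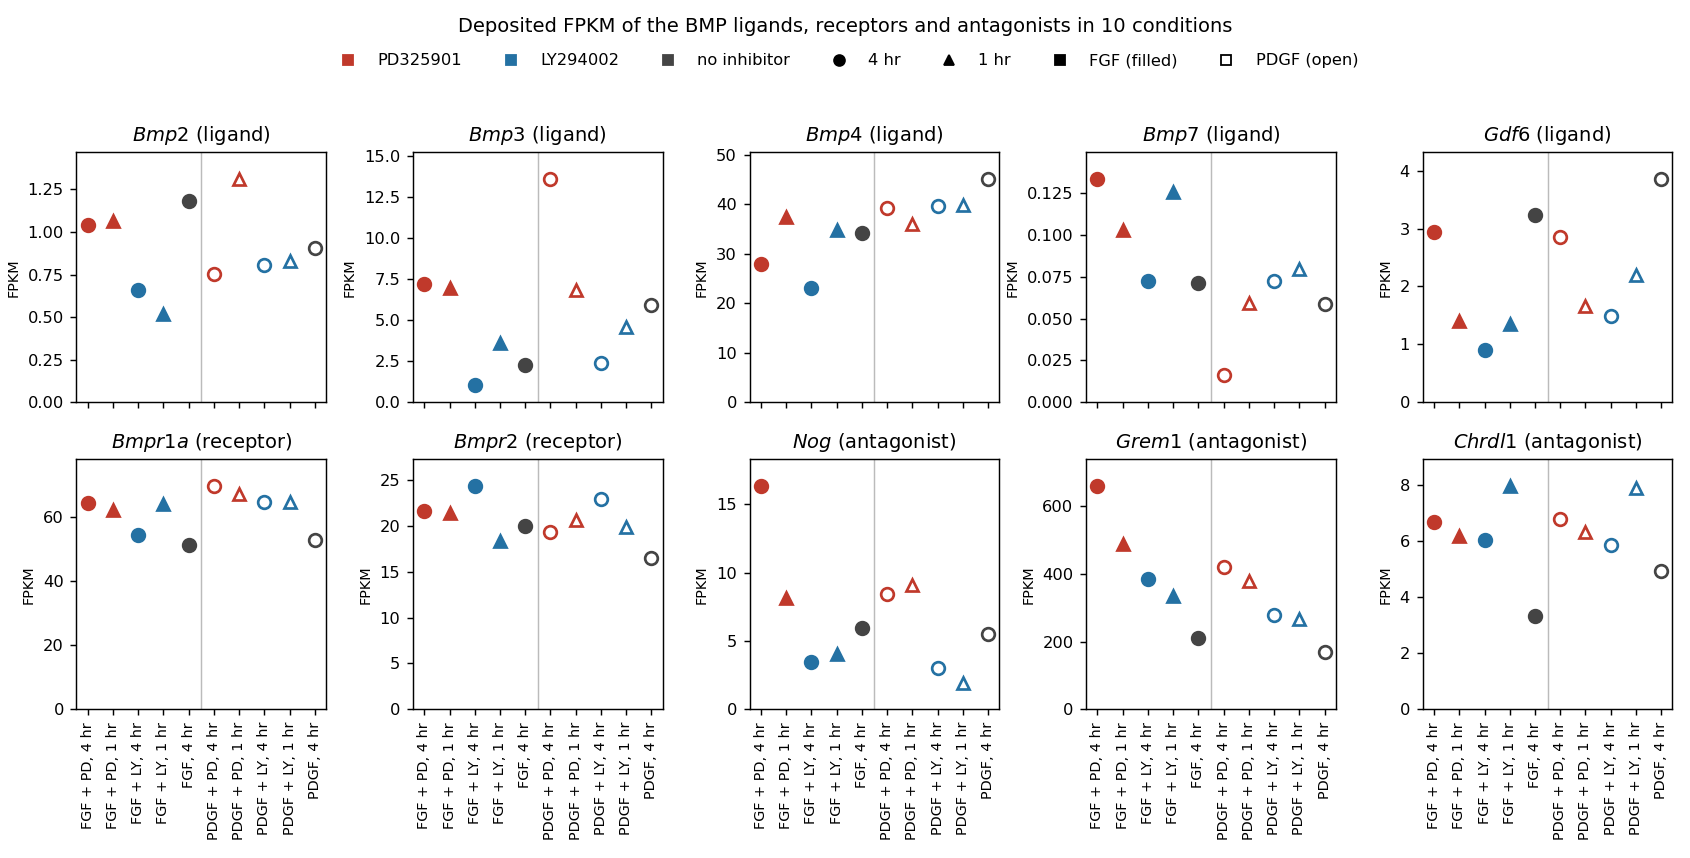
FPKM of each of the 10 BMP genes (one panel each, vertical axis in FPKM with its own scale) in the 10 conditions, where each point is the pooled value of 1 condition, red with PD, blue with LY and grey with ligand alone. *Bmp3* and *Nog* were higher in each PD condition than in every LY condition, *Grem1* was lowest in both ligand-alone conditions, and *Bmpr1a* and *Bmpr2* stayed within 1.48-fold. How many of all entries separate PD from LY in this way was not calculated.

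The first question was how the ligands compare. Heparin was present in the FGF conditions only, so ligand and heparin cannot be told apart in these pairs. With ligand alone at 4 hr, FGF against PDGF, 0 of 9 BMP genes were higher and 1 was lower, where 4.37% of all 11598 entries were higher and 6.58% lower. The 1 gene was *Bmp3*, at 2.25 FPKM with FGF against 5.93 FPKM with PDGF, 2.63-fold lower. *Chrdl1* came next at a log2 ratio of -0.58, just under the size rule, and *Bmp4* was at -0.40. *Grem1* was at 0.32, with 212 FPKM with FGF against 170.2 FPKM with PDGF. Over the 5 pairs of conditions that differ by ligand, 3 of 43 ratios (6.98%) were higher with FGF, where the share of all entries was 5.48%. Another 6 of 43 were lower, where the share of all entries was 6.74%. The 3 higher ratios, a share near that of all entries, were of *Nog* and *Grem1*, and the 6 lower ones were of *Bmp3*, *Bmp4* and *Gdf6*. Without the FPKM minimum another 3 ratios were higher, all of the ligand *Bmp7*, at 0.133 FPKM or less. *Bmp3* was lower with FGF in all 3 pairs at 4 hr, with log2 ratios of -1.39 alone, -0.91 with PD and -1.16 with LY, while the pairs at 1 hr gave 0.02 with PD and -0.35 with LY. *Nog* was 1.95-fold higher with FGF under PD at 4 hr and 2.10-fold higher under LY at 1 hr. *Grem1* was 1.57-fold higher with FGF under PD at 4 hr, and its log2 ratio was 0.32 to 0.65 in all 5 pairs. *Bmp4* was 1.72-fold lower with FGF under LY at 4 hr, at 23.0 FPKM with FGF against 39.7 FPKM with PDGF. *Gdf6* was lower with FGF under LY, 1.66-fold at 4 hr and 1.63-fold at 1 hr.

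**Figure D2:**
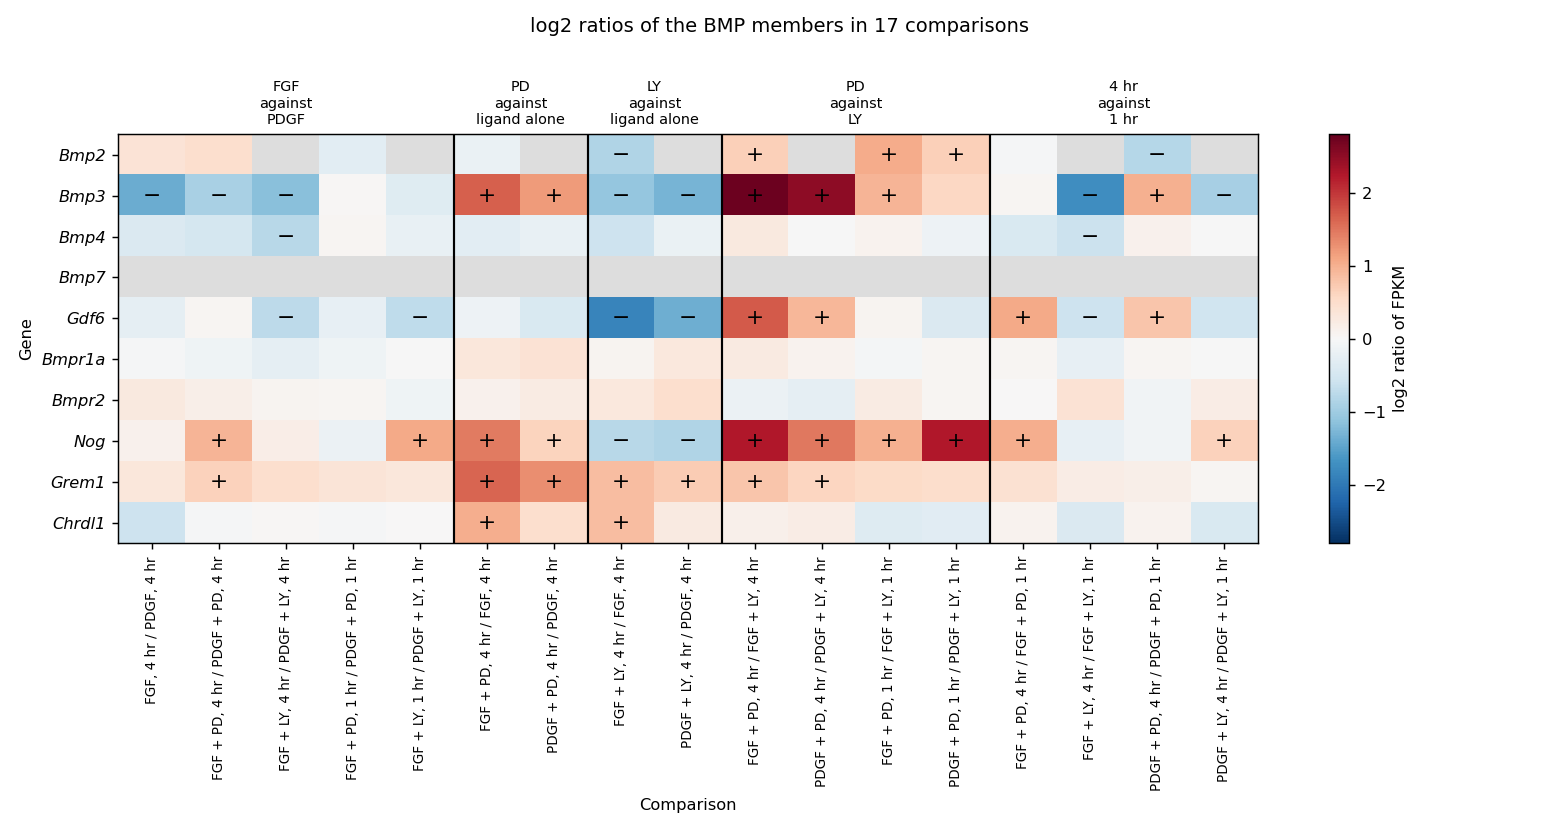
log2 ratios of the BMP genes (vertical axis, one gene each) in the 17 comparisons (horizontal axis, grouped by type), red for higher and blue for lower, with + and − marking ratios of 1.5-fold or more and grey marking genes not above 1 FPKM in either condition. The 2 receptors carry no mark, and no gene carries a − mark for PD against ligand alone or for PD against LY.

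With the MEK inhibitor against ligand alone at 4 hr, 4 of 9 genes were higher in FGF + PD than with FGF and 0 were lower, where 11.5% of all entries were higher and 11.6% lower. In PDGF + PD against PDGF, 3 of 8 were higher and 0 lower, where 11.9% of all entries were higher and 9.57% lower. Over both ligands, 7 of 17 ratios (41.2%) were higher and 0 lower, where the shares of all entries were 11.7% and 10.6%. *Bmp3* was at 7.20 FPKM in FGF + PD against 2.25 FPKM with FGF, 3.19-fold higher, and at 13.6 FPKM in PDGF + PD against 5.93 FPKM with PDGF, 2.29-fold higher. *Grem1* was at 660.5 FPKM in FGF + PD against 212 FPKM with FGF, 3.11-fold higher, and at 422 FPKM in PDGF + PD against 170.2 FPKM with PDGF, 2.48-fold higher. *Nog* was 2.74-fold higher with FGF and 1.53-fold higher with PDGF, and the value with PDGF was close to the size rule. *Chrdl1* was 2.01-fold higher in FGF + PD than with FGF, and its log2 ratio with PDGF was 0.46. The median log2 ratio of the BMP genes was 0.32 with FGF and 0.43 with PDGF, where the median of all entries was within 0.05 of 0 in every comparison.

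With the PI3K inhibitor against ligand alone at 4 hr, *Grem1* was higher with both ligands, while *Bmp3*, *Gdf6* and *Nog* were lower with both. *Chrdl1* was higher and *Bmp2* lower with FGF only. In FGF + LY against FGF, 2 of 9 genes were higher and 4 lower, where 11.4% of all entries were higher and 12.7% lower. In PDGF + LY against PDGF, 1 of 8 was higher and 3 were lower, where 9.84% of all entries were higher and 14.5% lower. Over both ligands, 3 of 17 ratios (17.6%) were higher and 7 of 17 (41.2%) lower, where the shares of all entries were 10.6% and 13.6%. *Gdf6* was at 0.894 FPKM in FGF + LY against 3.23 FPKM with FGF, 3.62-fold lower, and at 1.49 FPKM in PDGF + LY against 3.86 FPKM with PDGF, 2.59-fold lower. *Bmp3* was 2.11-fold lower with FGF and 2.48-fold lower with PDGF. *Nog* was 1.72-fold lower with FGF and 1.81-fold lower with PDGF. *Bmp2* was 1.79-fold lower in FGF + LY, at 0.661 FPKM against 1.18 FPKM with FGF, which is near the FPKM minimum. With PDGF it was below that minimum, at 0.807 FPKM in PDGF + LY against 0.905 FPKM with PDGF, and was not compared. *Grem1* was 1.82-fold higher in FGF + LY than with FGF and 1.63-fold higher in PDGF + LY than with PDGF. *Chrdl1* was 1.82-fold higher in FGF + LY than with FGF, and its log2 ratio with PDGF was 0.24.

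Both sets of comparisons share the ligand-alone conditions, so a value that was low in these is high in both. *Grem1*, *Chrdl1* and *Bmpr1a* were lower in both ligand-alone conditions than in all 8 inhibitor conditions, as were 9.25% of the 12298 entries, and *Gdf6* was higher in both, as were 11.7%. The ligand-alone conditions had 3 samples and the inhibitor conditions 2, and whether their libraries were made together is not given in the sources used here. An effect of the inhibitors and a difference between sets of libraries cannot be told apart in these comparisons. The 4 markers of neurons and glia summed to 62.7 to 77.7 FPKM in the inhibitor conditions, against 42.4 and 44.1 FPKM with ligand alone. Almost all of that sum was *Stmn2*, while *Sox10* and *Elavl3* were at 1.10 FPKM or less, and its part in the *Grem1* and *Chrdl1* ratios was not tested. In cultures measured in bulk, fewer cells of a type and less RNA per cell cannot be told apart.

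The inhibitors were then set against each other at the same ligand and time, which leaves the ligand-alone conditions out. Over the 4 pairs, 14 of 35 ratios (40%) were higher with PD than with LY and 0 were lower, where 11.6% of all entries were higher and 8.14% lower. With FGF at 4 hr, 5 of 9 were higher and 0 lower, where 12.6% of all entries were higher and 11.6% lower. With PDGF at 4 hr, 4 of 8 were higher and 0 lower, where 12.8% of all entries were higher and 6.97% lower. With FGF at 1 hr, 3 of 9 were higher and 0 lower, where 12% of all entries were higher and 7.78% lower. With PDGF at 1 hr, 2 of 9 were higher and 0 lower, where 8.86% of all entries were higher and 6.21% lower. The median log2 ratio of the BMP genes was 0.66 with FGF and 0.41 with PDGF at 4 hr, and 0.22 with FGF and 0.05 with PDGF at 1 hr.

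*Nog* was higher with PD in all 4 pairs, 4.71-fold with FGF at 4 hr, 2.77-fold with PDGF at 4 hr, 2.01-fold with FGF at 1 hr and 4.70-fold with PDGF at 1 hr. *Bmp3* was 6.75-fold higher with FGF at 4 hr and 5.68-fold higher with PDGF at 4 hr, and 1.93-fold higher with FGF at 1 hr. Its log2 ratio with PDGF at 1 hr was 0.58, just under the size rule. *Gdf6* was higher with PD at 4 hr, 3.30-fold with FGF and 1.92-fold with PDGF, and its log2 ratios at 1 hr were 0.07 with FGF and -0.40 with PDGF. *Grem1* was 1.71-fold higher with FGF and 1.52-fold higher with PDGF at 4 hr, and at 1 hr its log2 ratios were 0.54 with FGF and 0.50 with PDGF. *Bmp2* had log2 ratios of 0.66 with FGF at 4 hr, 1.03 with FGF at 1 hr and 0.66 with PDGF at 1 hr, at levels of 1.31 FPKM or less. *Bmp4*, *Bmpr1a*, *Bmpr2* and *Chrdl1* did not pass the size rule in any of the 4 pairs, and the log2 ratios of *Bmp4* were -0.15 to 0.28. *Kdr*, a receptor of endothelial cells, moved in the same direction, at 3.02 to 4.39 FPKM with PD against 0.770 to 0.880 FPKM with LY. The other endothelial markers did not all follow, since *Pecam1* and *Cdh5* were at 0.105 FPKM or less in every condition and *Tek* was at 1.08 to 1.70 FPKM with PD and 0.598 to 1.52 FPKM with LY. The summed list of 4 was at 4.19 to 6.11 FPKM with PD and 1.42 to 2.35 FPKM with LY, and its part in these ratios was not tested. *Myog*, a transcription factor of muscle, also moved with PD, at 0.965 to 2.06 FPKM with PD against 0 to 0.143 FPKM with LY, while *Acta1* was at 12.6 to 21.6 FPKM with PD and 11.5 to 19.2 FPKM with LY. The summed muscle list was at 16.03 to 26.6 FPKM with PD and 12.2 to 19.7 FPKM with LY. *Osr1*, which encodes a regulator of palate growth and marks these cells, was at 72.3 to 108 FPKM with PD against 24.1 to 36.2 FPKM with LY. The summed mesenchyme list was at 2183 to 2607 FPKM with PD and 2646 to 3069 FPKM with LY, and the part of the muscle and mesenchyme markers in these ratios was not tested.

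**Figure D3:**
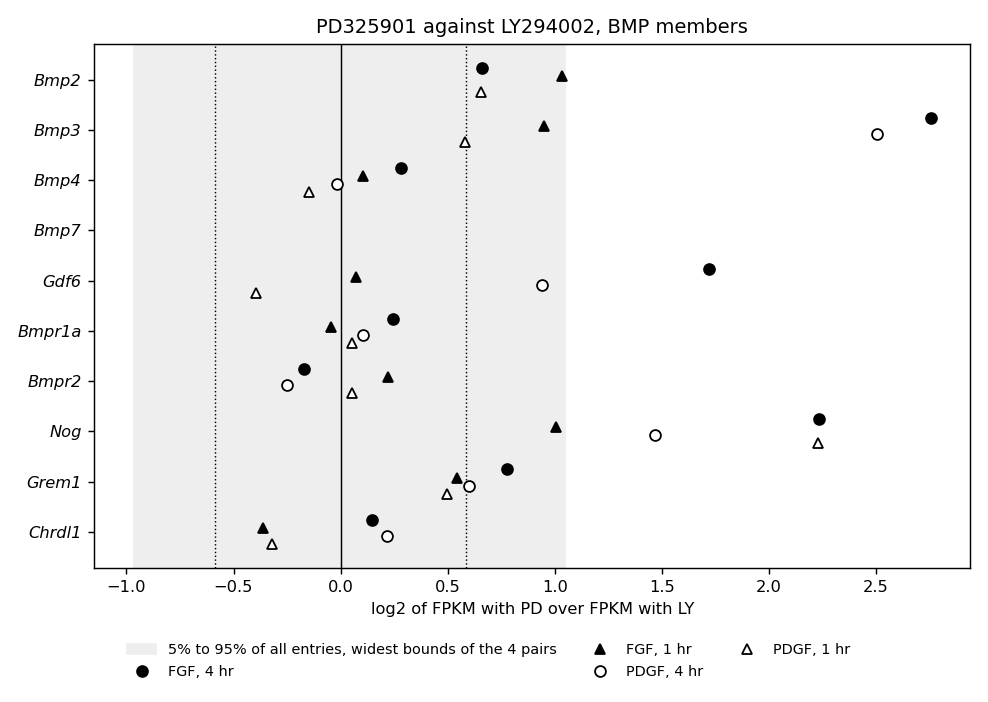
log2 of FPKM with PD over FPKM with LY (horizontal axis) for each BMP gene (vertical axis), circles for 4 hr and triangles for 1 hr, filled for FGF and open for PDGF, with dotted lines at 1.5-fold and a single grey band for the 5% to 95% range of all entries in the FGF pair at 4 hr, the widest of the 4 pairs. *Bmp3* at 4 hr, *Gdf6* with FGF at 4 hr, and *Nog* at 4 hr and with PDGF at 1 hr lay outside the grey band, while *Bmp4*, *Chrdl1* and the receptors stayed between the dotted lines.

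Time was compared within each inhibitor and ligand. Over the 4 pairs, 5 of 34 ratios (14.7%) were higher at 4 hr than at 1 hr and 5 of 34 (14.7%) lower, where 7.27% of all entries were higher and 7.8% lower. *Bmp3* and *Gdf6* each had ratios past the size rule in both directions. *Bmp3* was 1.99-fold higher at 4 hr in PDGF + PD, at 13.6 FPKM against 6.81 FPKM at 1 hr, and 3.36-fold lower at 4 hr in FGF + LY, at 1.07 FPKM against 3.58 FPKM at 1 hr. It was also 1.91-fold lower at 4 hr in PDGF + LY, while FGF + PD gave a log2 ratio of 0.06, at 7.20 FPKM at 4 hr against 6.92 FPKM at 1 hr. *Gdf6* was 2.09-fold higher at 4 hr in FGF + PD and 1.71-fold higher in PDGF + PD, and in FGF + LY its log2 ratio was -0.59, at the size rule. *Nog* was 2.01-fold higher at 4 hr in FGF + PD and 1.57-fold higher in PDGF + LY. *Bmp4* was 1.51-fold lower at 4 hr in FGF + LY, at 23.0 FPKM against 34.7 FPKM at 1 hr. *Bmp2* was 1.74-fold lower at 4 hr in PDGF + PD, at 0.755 FPKM against 1.31 FPKM at 1 hr.

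The levels of antagonist and ligand can be set side by side as ratios of FPKM, which say nothing of protein. The ratio of *Grem1* to *Bmp4* was 23.6 in 4 hr FGF + PD, 13.1 in 1 hr FGF + PD, 16.8 in 4 hr FGF + LY, 9.65 in 1 hr FGF + LY and 6.21 with FGF alone. For PDGF it was 10.7 in 4 hr PDGF + PD, 10.5 in 1 hr PDGF + PD, 7.004 in 4 hr PDGF + LY, 6.72 in 1 hr PDGF + LY and 3.78 with PDGF alone. In each of the 5 matched pairs the FGF value was above the PDGF value, and both ligand-alone values were below all 8 inhibitor values. Within the matched pairs, only *Grem1* under PD at 4 hr and *Bmp4* under LY at 4 hr passed the size rule themselves. As above, ligand and heparin cannot be told apart in these pairs, nor inhibitor and set of libraries against ligand alone. The ratio of *Nog* to *Bmp4* was highest, at 0.585, in 4 hr FGF + PD and lowest, at 0.0483, in 1 hr PDGF + LY. The sum of the 3 antagonists was 17.4 times that of the 5 ligands in 4 hr FGF + PD and 3.24 times with PDGF alone, the extremes of the 10 conditions. The ligand sum includes the atypical *Bmp3*, at 7.20 FPKM in 4 hr FGF + PD and 5.93 FPKM with PDGF alone. Other antagonists and ligands of the pathway are not in these sums. *Fstl1*, one of the other antagonists and modulators listed below, was at 848 to 1210 FPKM.

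**Figure D4:**
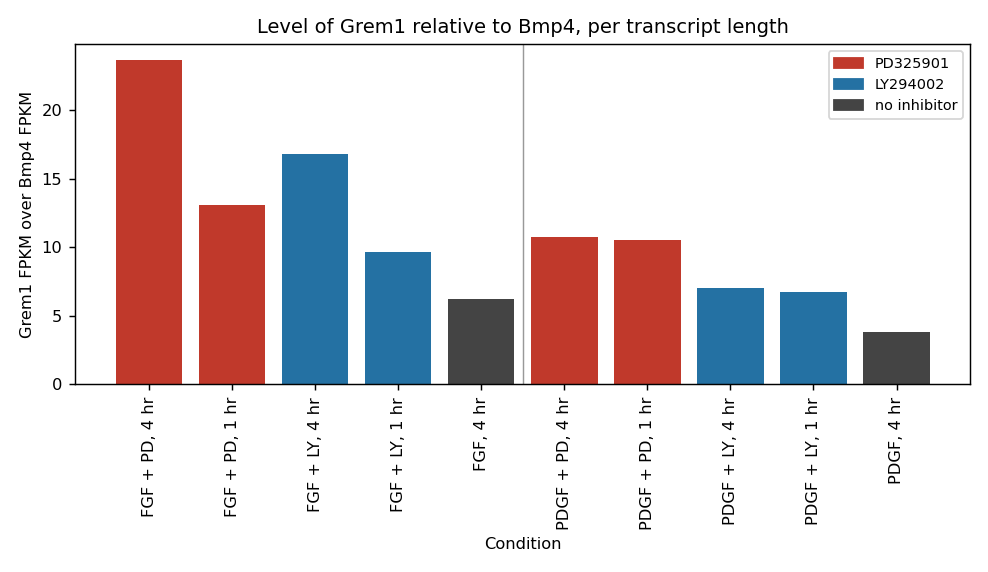
Ratio of *Grem1* FPKM to *Bmp4* FPKM (value axis, no unit) in the 10 conditions, 1 pooled value each. The ratio was 3.78 with PDGF alone and 23.6 in 4 hr FGF + PD, and each FGF condition was above its matched PDGF condition. Heparin was present in the FGF conditions only.

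The rest of the pathway was followed in lists of 50 other genes. Of 9 BMP targets with FGF against PDGF at 4 hr, 0 were higher and 4 lower, where 4.37% of all entries were higher and 6.58% lower. Their median log2 ratio was -0.32, where that of all entries was -0.02. *Id1*, a target that blocks differentiation factors, was at 11.2 FPKM with FGF against 17.2 FPKM with PDGF, and *Id3*, a member of the same family, was at 19.9 FPKM with FGF against 48.9 FPKM with PDGF. With PD against LY at 4 hr with FGF, 3 of 8 targets were higher and 4 lower, where 12.6% of all entries were higher and 11.6% lower. With PDGF at 4 hr, 3 of 9 were higher and 0 lower, where 12.8% of all entries were higher and 6.97% lower. *Id2* was 4.24-fold, *Id4* 2.26-fold and *Id3* 1.89-fold higher in 4 hr FGF + PD than in 4 hr FGF + LY. In the same pair *Id1* was 1.62-fold lower, and *Msx1* was also lower, at 49.1 FPKM against 78.0 FPKM. *Id3* was 5.52-fold lower at 4 hr than at 1 hr in FGF + LY, and *Id1* was 2.33-fold lower in FGF + PD. The other log2 ratios of *Id3* for 4 hr against 1 hr were -1.19 in FGF + PD, -0.63 in PDGF + PD and -0.94 in PDGF + LY. Those of *Id1* were -0.49 in FGF + LY, -0.50 in PDGF + PD and -0.92 in PDGF + LY. Over these 4 pairs 7.8% of all entries were lower.

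Among 8 Smads and Smurfs, *Smad1*, which carries the BMP signal to the nucleus, was at 18.8 to 32.9 FPKM in the 4 PD conditions, 9.26 to 12.1 FPKM in the 4 LY conditions and 12.1 and 12.8 FPKM with ligand alone. The PD conditions thus lay above all others, as for *Bmp3* and *Nog*. The same held outside the pathway for *Osr1*, at 72.3 to 108 FPKM with PD and 24.1 to 51.9 FPKM elsewhere. How many of all entries did so was not calculated. *Smad6*, an inhibitory Smad, was at 2.66 FPKM with FGF against 7.12 FPKM with PDGF. *Smad7*, another inhibitory Smad, was 1.93-fold lower in PDGF + PD than with PDGF, and *Smurf1*, a ubiquitin ligase of Smads, was 2.13-fold lower. In FGF + PD against FGF, *Smad7* was 1.75-fold lower and *Smurf1* 1.56-fold lower. Of the 7 above the minimum, 0 passed the size rule in FGF + LY against FGF, where 24% of all entries did in either direction, and 0 in PDGF + LY against PDGF, where 24.4% did.

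Of 15 other antagonists and modulators, 12 or 13 entered each comparison, and at most 1 was higher and at most 1 lower in each of the 4 pairs of PD and LY, which is near the shares of all entries, 8.86% to 12.8% higher and 6.21% to 11.6% lower. *Chrd*, which encodes chordin, was 1.82-fold higher in FGF + LY and 1.51-fold higher in FGF + PD than with FGF. Its ligand-alone values both lay below all inhibitor values, so inhibitor and set of libraries cannot be told apart. *Fstl3*, a follistatin-like antagonist, was at 46.5 FPKM in 4 hr FGF + PD against 23.7 FPKM in 4 hr FGF + LY. *Nbl1*, of the same protein family as *Grem1*, was 1.76-fold higher in FGF + PD than in PDGF + PD at 4 hr. Among 9 receptors and coreceptors, *Acvrl1*, a type I receptor, was at 2.23 FPKM in PDGF + LY against 8.43 FPKM with PDGF. It was at 10.1 FPKM with FGF alone and at 5.12 FPKM or less in all inhibitor conditions, so the same limit holds. *Rgma*, a BMP coreceptor, was at 2.35 FPKM with FGF against 5.30 FPKM with PDGF, and its relative *Rgmb* was 1.73-fold lower in 4 hr FGF + PD than in 4 hr FGF + LY. *Neo1*, a receptor of RGM proteins, was 1.77-fold higher in FGF + PD and 1.76-fold higher in FGF + LY than with FGF. Against PDGF alone, its log2 ratios were 0.19 in PDGF + PD and 0.21 in PDGF + LY. With ligand alone, *Neo1* was 1.72-fold lower with FGF than with PDGF. Both ligand-alone values of *Neo1* lay below all inhibitor values, so inhibitor and set of libraries cannot be told apart here either. Of the 9 other ligands, *Gdf10* at 1 hr was at 2.10 FPKM in PDGF + PD against 8.35 FPKM in PDGF + LY. *Gdf5*, a ligand of joint formation, went the other way at lower levels, at 1.87 FPKM in 1 hr FGF + PD against 0.299 FPKM in 1 hr FGF + LY, and at 1.11 FPKM in 1 hr PDGF + PD against 0.311 FPKM in 1 hr PDGF + LY. In 4 hr FGF + PD against 4 hr FGF + LY, 2 of 8 receptors and coreceptors were higher and 1 lower, and 1 of 5 other ligands was higher and 2 were lower, where 12.6% of all entries were higher and 11.6% lower.

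**Figure D5:**
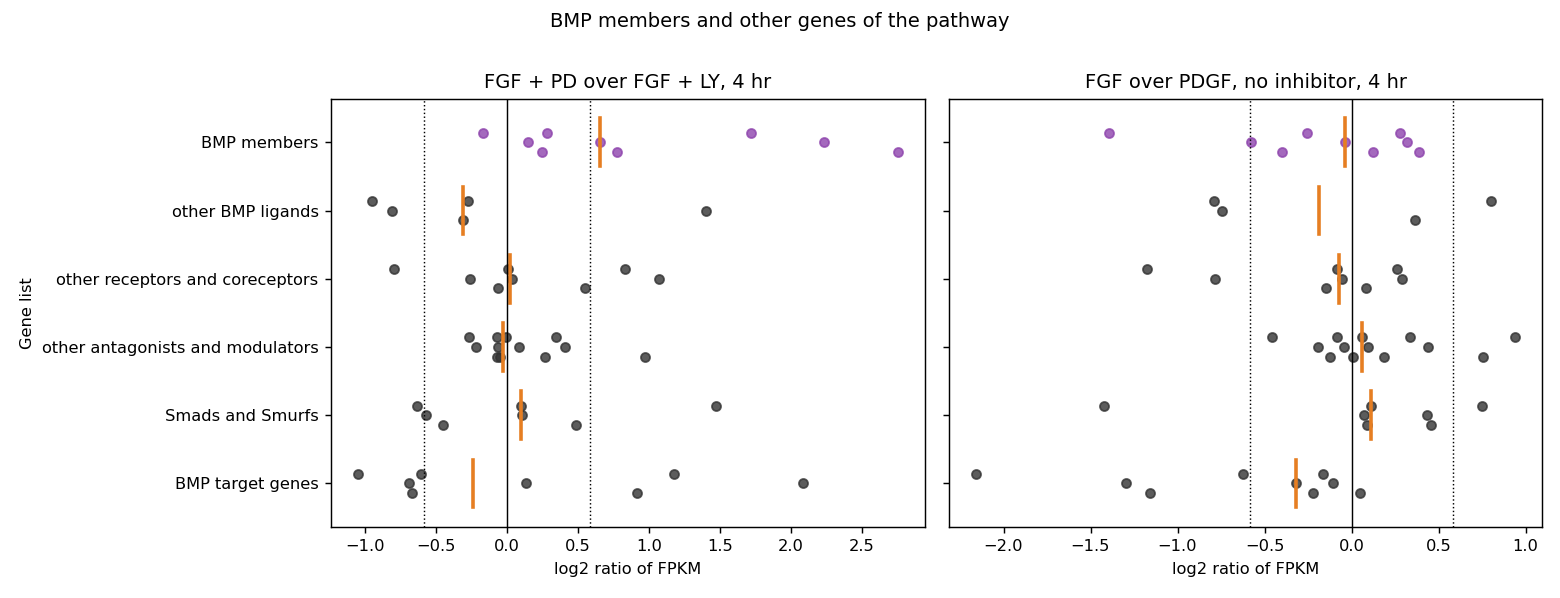
log2 ratios of the BMP genes and of the 5 lists of other pathway genes (1 point per gene) for 4 hr FGF + PD over 4 hr FGF + LY (left) and for FGF over PDGF alone at 4 hr (right), with dotted lines at 1.5-fold and an orange bar at each list's median. On the left the median of the BMP genes was 0.66 and that of the BMP targets -0.24, and on the right they were -0.04 and -0.32.

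Likeness of pattern was measured as the Pearson correlation of log2(FPKM + 1) over the 10 conditions, among 2342 genes with mean FPKM of at least 5 and a range of at least 2-fold. These values describe 10 points that share libraries, treatments and controls. The genes most like *Bmp3* were *Efs* (0.976), *Ccn5* (0.964) and *Pou6f1* (0.963). Those most like *Nog* were *Lgals3* (0.968), *Tubb2a* (0.949) and *Tubb2a-ps2* (0.948). For *Grem1* they were *Gorab* (0.967), *Arhgap29* (0.931) and *Wdfy1* (0.929), and for *Chrdl1* they were *Vegfd* (0.946), *Cdh8* (0.939) and *Capn6* (0.937). Between the BMP genes themselves the correlation was 0.60 for *Nog* and *Bmp3*, 0.59 for *Grem1* and *Nog* and 0.35 for *Grem1* and *Bmp3*. *Chrdl1* had correlations of 0.51 with *Grem1*, 0.32 with *Bmp3* and -0.12 with *Nog*.

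Sharing of sequence with other genes was small. Of the 31-base words in each gene's transcripts, 0% to 4.08% also occur in other genes. The largest shares, 4.08% for *Bmpr1a* and 3.55% for *Bmp4*, include exons of *Gm17110* and *Gm15217* on the opposite strand. Whether the libraries kept strand is not given in the sources used here, so reads of these overlapping genes cannot be told apart from those of *Bmpr1a* and *Bmp4*.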

How the data were processed

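Poly-A RNA of 22 MEPM samples was sequenced. Per the labels, the authors used CASAVA for base calls, TopHat for alignment to mm10 and Cuffdiff for FPKM, and the versions are not given in the sources used here. The deposited table holds 1 FPKM per gene and condition in 23286 entries, pooled over 3 samples for ligand alone and 2 with inhibitor. Such pooling hides the spread between replicates, and the table gives no counts or depth. Another 3 columns belong to no sample of this series and were not used. Samples were grouped by the ligand, inhibitor and time in their labels.

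RefSeq identifiers were matched to symbols, with 168 entries left without a symbol and 248 with several. The highest mean would be taken where a symbol had several entries, which did not occur among the 10 BMP genes. Ratios were calculated without a pseudocount among entries above 1 FPKM in either condition and counted from 1.5-fold, in 17 comparisons of 5 kinds. Ratios are not independent, since conditions recur. The BMP genes, the lists and the rules were chosen with earlier results of these data known. All 10 BMP genes are named, and of each other list at most 4 genes past 1.5-fold whose higher FPKM was at least 5, ordered by log2 ratio, together with the 3 most alike genes of each BMP gene with a range of at least 2-fold and a highest FPKM of at least 5. The values of *Id1* and *Id3* with ligand alone and the levels of *Fstl1*, *Gdf5* and of single markers were added after they were seen. So were the further values of *Chrd*, *Acvrl1*, *Neo1*, *Id1*, *Id3*, *Smad7* and *Smurf1*, and those of *Msx1*. Values of some genes on the lists are not reported here. The alternatives were pseudocounts of 0.1 and 1, no filter, FPKM of at least 5, division by the median ratio, a size rule of 2-fold, and the sum of a symbol's entries. The calculation was tested on simulated data. Python 3.11.15 was used with pandas 2.3.3, NumPy 2.4.6 and matplotlib 3.10.9.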

Additional observations from a re-analysis of the deposited data

Results flagged for a closer look

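Values of the same contrast that pointed in opposite directions between conditions are listed here, and none of these differences was tested, since each condition has 1 pooled value. For 4 hr against 1 hr, the log2 ratio of *Bmp3* was 0.99 in PDGF + PD, but -1.75 in FGF + LY and -0.93 in PDGF + LY, and in FGF + PD it was 0.06. For the same contrast, the log2 ratio of *Gdf6* was 1.06 in FGF + PD and 0.77 in PDGF + PD, but -0.59 in FGF + LY, and in PDGF + LY it was -0.56.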

How the results depend on the processing

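Of 146 ratios of the BMP genes, 50 passed the size rule, and none changed direction under the alternatives. None could have, because pseudocounts, filters and size rules keep the sign of a ratio. The median ratios of all entries were also far smaller than the size rule. The alternatives thus bear only on which ratios pass. A pseudocount of 0.1 kept 49 of the 50, a pseudocount of 1 kept 38, division by the median ratio kept 47, FPKM of at least 5 kept 30 and a size rule of 2-fold kept 24, while without a filter all 50 were kept and 10 were added. Summing the entries of a symbol changed nothing because each gene had 1 entry. Genes near the minimum, *Bmp2*, *Gdf6* and *Bmp3* at its lowest, are therefore the least certain. For FGF against PDGF, the 3 higher ratios became 6 without a filter and 1 at 2-fold, and the 6 lower ones became 3 at FPKM of at least 5 and 2 at 2-fold. For PD against ligand alone, the 0 lower ratios became 1 without a filter. For LY against ligand alone, the 3 higher ratios became 0 at 2-fold, and the 7 lower ones became 3 at FPKM of at least 5 and 4 at 2-fold. For PD against LY, the 14 higher ratios became 9 at FPKM of at least 5 and 8 at 2-fold, and the 0 lower ones became 1 without a filter. For 4 hr against 1 hr, the 5 higher ratios became 3 with a pseudocount of 1, 2 at FPKM of at least 5 and 2 at 2-fold. The 5 lower ones became 2 with a pseudocount of 1, 1 at FPKM of at least 5, 3 after division by the median ratio and 1 at 2-fold. No paired analysis was possible because the columns pool the replicates, and no replicate could be left out for the same reason.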
